A study of Mus musculus with 3 samples.

Results

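Cadherins and non-clustered protocadherins are described here in hippocampal nuclei of mice with 1 copy of the D allele of Scn8a, which encodes a sodium channel of neurons. The members were chosen by symbol alone: every gene named Cdh or Pcdh followed by a number, with or without a final x. This gave 35 of the 32285 genes in the tables. By the usual groups of the family, 5 are type I classical cadherins, 13 type II classical cadherins, 5 other cadherins, 4 delta-1 protocadherins, 5 delta-2 protocadherins and 3 other protocadherins. The clustered protocadherins carry further letters in their symbols and fall outside the rule.

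Cadherins are calcium-dependent adhesion proteins of the cell surface. Classical cadherins bind cadherins of the neighbouring cell and are held to the actin skeleton by catenins. Type II cadherins are known for being expressed in different combinations in different neurons, and several take part in the choice of synaptic partners in the hippocampus. Non-clustered protocadherins act in axon growth, synapse formation and cell sorting, and variants of PCDH19 cause an epilepsy in people.

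Nuclear RNA was sequenced from the hippocampus of 3 adult female Scn8aD/+ (heterozygous) mice, labelled post-onset 1, 2 and 3, here mice 1, 2 and 3. Control mice were not analysed here, so every comparison lies between classes of nuclei of the same 3 mice and none bears on the mutation. The labels give each mouse a batch of its own, so a difference between mice cannot be told apart from one between batches. Nuclei were stained with propidium iodide, sorted and captured in droplets, and the 3' ends of their RNAs were read.

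After filtering, 7890, 11807 and 4401 nuclei remained in mice 1, 2 and 3, with medians of 8412, 1801 and 24859 unique molecules (UMIs) per nucleus. Clusters of nuclei were named from marker genes, and "-like" marks that markers are the only evidence of identity. Members were left out of the genes used for clustering. There were 16 classes, 15 of them with at least 20 nuclei in every mouse, and astrocyte-like nuclei came from mice 1 and 3 alone. The 8 granule cell markers summed to 3517, 3194 and 2271 CPM (UMIs per 1000000 UMIs of the class and mouse) in granule-like nuclei of mice 1, 2 and 3 and to 322, 376 and 263 CPM in CA1-like nuclei. The CA3 markers were less specific, since subicular or cortical glutamatergic-like nuclei held 76.6%, 67.5% and 127% of their level in CA3-like nuclei. Mouse 2 was the shallowest library. Of the 3 mice, it had the most RNA of glutamatergic markers in oligodendrocyte-like nuclei. The 8 markers, none of them at 0, reached 17.7%, 53.0% and 17.9% of their glutamatergic level in these nuclei of mice 1, 2 and 3. In mouse 2 the level was higher still in OPC-like and vascular-like nuclei, as given below. Whether this RNA was free, from doublets or from mixed clusters was not tested. Unnamed nuclei made up 3.78%, 28.8% and 0.318%. Further glutamatergic and inhibitory nuclei had no subtype and are in none of the 16 classes. They entered the pools of glutamatergic, inhibitory and neuron-like nuclei. The libraries shared 36 cell barcodes between mice 1 and 2, 13 between mice 1 and 3 and 25 between mice 2 and 3. The p-values below rest on how far the differences between classes varied among these 3 mice, with each mouse's own level taken out. The estimate of that variation borrows from other genes, and in the fit over all classes it is shared by the classes.

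The sequence before the start site is shown for 3 members with distinct class patterns. Pcdh8 was called higher in granule-like nuclei alone, and Cdh23 was high in microglia-like nuclei. Cdh20 was high in the oligodendrocyte lineage and in astrocyte-like nuclei, and was also called higher in Lamp5- and Vip-like nuclei. Of the 9 alternative settings given below, its Lamp5 call was kept in 9 and its Vip call in 4. RefSeq (GRCm38.p6) gave promoters for 22 of the 35 members, and the 250 bases before each start were searched on both strands. Capitals mark TATAAA, the TATA box, in Pcdh8 (chr14:79771313-79771562, minus strand), CANNTG, the E-box of basic helix-loop-helix factors, in Cdh20 (chr1:104768270-104768519, plus strand), and GAGGAA, a core bound by PU.1, in Cdh23 (chr10:60696491-60696740, minus strand), where both copies lie on the other strand and read TTCCTC. Each sequence is written 5′ to 3′ on the strand of its gene.
Pcdh8: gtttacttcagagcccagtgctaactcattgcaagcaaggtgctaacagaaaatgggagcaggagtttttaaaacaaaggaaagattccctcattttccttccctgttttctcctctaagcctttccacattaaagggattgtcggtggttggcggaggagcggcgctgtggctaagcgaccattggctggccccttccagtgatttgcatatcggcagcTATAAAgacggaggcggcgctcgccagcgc
Cdh20: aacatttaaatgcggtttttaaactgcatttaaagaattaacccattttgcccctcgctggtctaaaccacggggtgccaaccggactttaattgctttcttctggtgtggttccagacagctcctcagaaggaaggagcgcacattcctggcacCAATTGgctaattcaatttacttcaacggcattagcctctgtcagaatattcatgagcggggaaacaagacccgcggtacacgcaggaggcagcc
Cdh23: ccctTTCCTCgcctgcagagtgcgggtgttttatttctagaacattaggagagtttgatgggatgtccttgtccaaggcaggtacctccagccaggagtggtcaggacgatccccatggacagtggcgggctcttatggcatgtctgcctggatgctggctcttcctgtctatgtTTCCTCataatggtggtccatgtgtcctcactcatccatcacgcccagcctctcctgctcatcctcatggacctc
The TATAAA of Pcdh8 begins 30 bases before its start. Of all 32851 RefSeq promoters, 12.4% hold TATAAA, 66.2% CANNTG and 23.3% GAGGAA in this window. Of the 25 promoters of members, 2, 13 and 9 do. A match describes the letters and is neither a bound site nor a cause.

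Members held 0.846%, 0.819% and 1.12% of all UMIs in mice 1, 2 and 3. Most are long genes: 19 of 35 exceed 100 kb, and their median length is 123 kb, against 12.3 kb for all genes (GENCODE annotation of GRCm38). Across the 35 members the mean level went with gene length (Spearman rho 0.69, a description of genes that share the same libraries). The sources used here do not say whether intron reads were counted. Per kb of gene, the level was highest for Pcdh8, the shortest member, at 11.5 CPM per kb, followed by Pcdh9 at 4.88, Cdh9 at 3.52 and Pcdh17 at 2.89 CPM per kb. The type II genes Cdh6, Cdh9, Cdh10, Cdh12 and Cdh18 lie on chromosome 15 within 10.4 Mb.

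Levels per class are UMIs summed over the nuclei of a class in a mouse, as CPM. In all, 27 members reached a mean of 20 CPM in at least 1 class. The highest class per mouse was taken over the 15 classes with at least 20 nuclei in every mouse, so without astrocyte-like nuclei. Of the 27 members, 13 had the same highest class in all mice, against 31.6% of the 11325 genes of any kind at that level. Cdh19 and Pcdh10 are among these 13, although their highest mean was in astrocyte-like nuclei. For 9 members (33.3%) the values of the first and second class did not overlap, against 20.6% of those genes. Leaving out mice 1, 2 and 3 in turn gave 33.3%, 35.7% and 59.3% of members, against 27.6%, 40.4% and 34.2% of genes. The shares were 18.5% against 13.0% with nuclei thinned to 1000 UMIs, and 19.2% against 18.0% with each library clustered alone. The family's share of UMIs was largest in oligodendrocyte-like nuclei, at 1.82%, 1.46% and 2.37% in mice 1, 2 and 3, and had its lowest mean in microglia-like nuclei, at 0.232%, 0.741% and 0.293%. Most of the oligodendrocyte-like share was Pcdh9. Without that gene, OPC-like nuclei (oligodendrocyte precursors) had the largest mean share, 0.877% ± 0.197 (SD, n = 3).

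**Figure D1:**
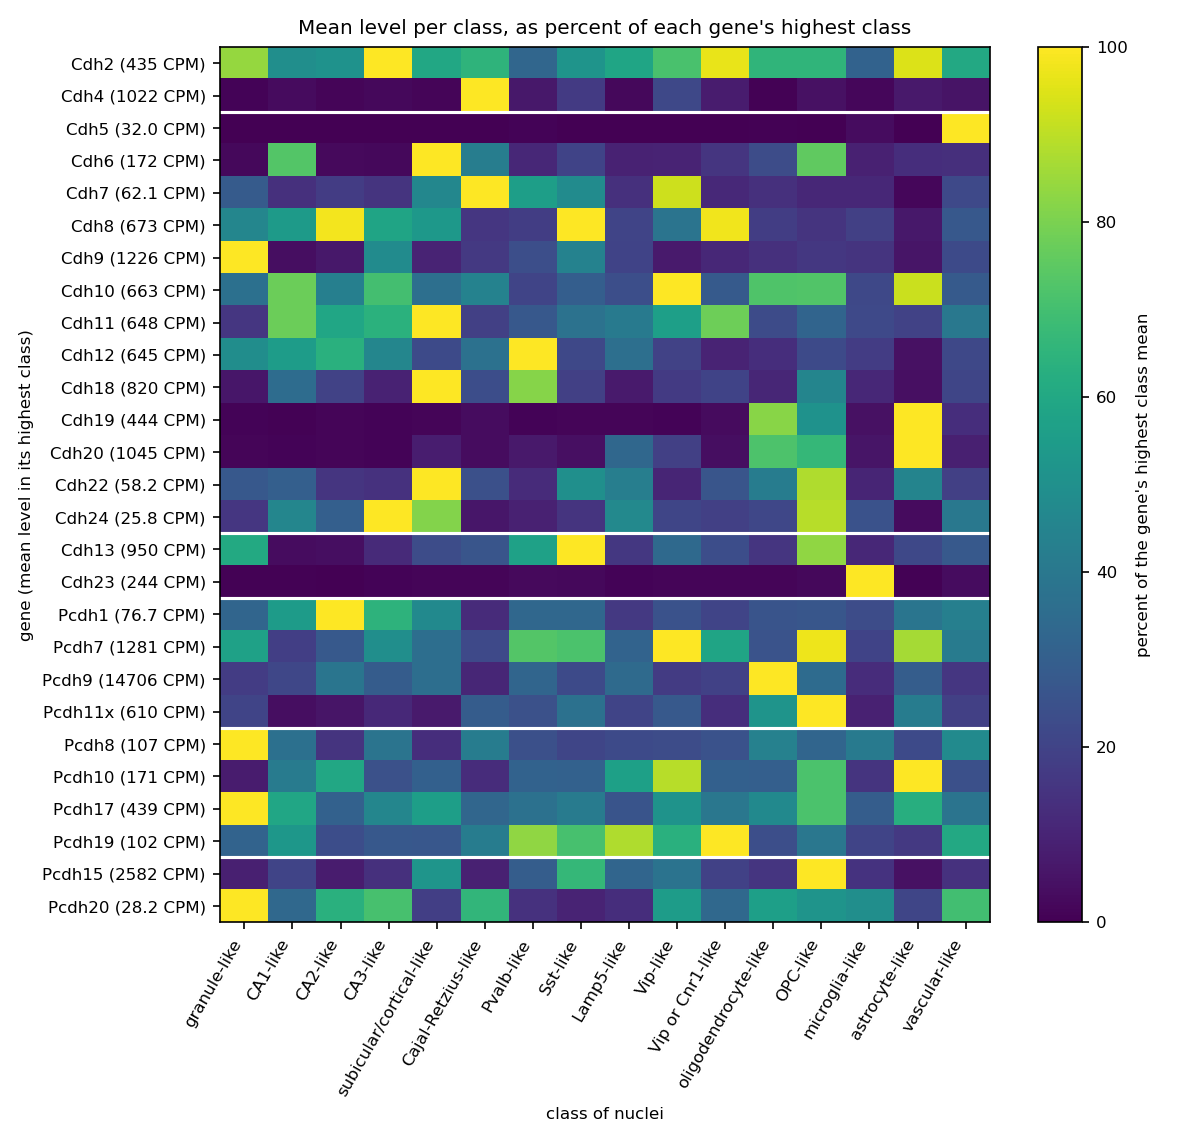
Mean level of the 27 members that reached 20 CPM (genes on the vertical axis) in each of 16 classes of nuclei (horizontal axis), as percent of the gene's own highest class. Cdh4, Cdh9, Cdh23 and Pcdh9 each stand highest in a class whose values do not overlap with the second, while the class means of Cdh2 range from 137 to 435 CPM.

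A fit over all 16 classes set each class against the mean of the others. It tested 28 members, and all 28 were called higher in at least 1 class, against 60.9% of all genes. A call here and below needs an adjusted p under 0.05, over all genes tested, and an absolute log2 fold change no smaller than 1. In this fit 84 pairs of a member and a class were called, against 9.22% of the pairs of all genes, 5 classes at most for a member. Cdh2, Cdh23, Pcdh8, Pcdh9 and Pcdh17 were called in 1 class alone. Of the pairs, 34 from 18 members kept their call in all 9 alternatives tried; a pair that an alternative could not test does not count as kept. There were 50 pairs called without mouse 1 (against 6.15% of all pairs), 95 without mouse 2 (10.6%), 61 without mouse 3 (6.4%) and 47 with nuclei thinned to 1000 UMIs (7.20%).

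Among glutamatergic classes, granule-like nuclei had 6 of 28 members called higher, against 9.39% of all genes: Cdh9, Pcdh8, Cdh13, Pcdh20, Pcdh17 and Cdh12. CA1-like nuclei had 8, against 9.11%: Cdh6, Cdh12, Cdh11, Cdh18, Cdh10, Cdh24, Cdh8 and Pcdh1. CA2-like nuclei had 5, against 9.16%: Pcdh1, Cdh8, Cdh12, Pcdh10 and Pcdh20. CA3-like nuclei had 9, against 9.73%: Cdh24, Cdh9, Pcdh1, Pcdh20, Cdh8, Cdh12, Cdh10, Cdh11 and Cdh2. Of these, Cdh9 alone kept its call in all 9 alternatives. Subicular or cortical glutamatergic-like nuclei had 7, against 7.45%: Cdh6, Cdh18, Cdh22, Cdh24, Cdh11, Pcdh15 and Cdh7. In Cajal-Retzius-like nuclei the 2 were Cdh4 and Cdh7, against 3.86%.

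Among inhibitory classes, Pvalb-like nuclei had 5 members called higher, against 7.93% of all genes: Cdh18, Cdh12, Cdh7, Cdh13 and Pcdh19. Sst-like nuclei had 7, against 7.2%: Pcdh18, Cdh13, Cdh4, Pcdh15, Cdh9, Cdh8 and Cdh7. Lamp5-like nuclei had 2, against 5.93%: Cdh20 and Pcdh19. Vip-like nuclei had 7, against 4.75%: Pcdh18, Cdh4, Cdh7, Cdh20, Pcdh10, Pcdh7 and Cdh10. Of these 7, Cdh4 alone kept its Vip call in all 9 alternatives. Those of Cdh7, Pcdh10, Pcdh7 and Cdh10 were each kept in 7 and that of Cdh20 in 4. Pcdh18 averaged 2.83 CPM in Sst-like and 5.99 CPM in Vip-like nuclei, on 49, 18 and 31 UMIs in the whole libraries of mice 1, 2 and 3. Its Sst call was kept in 4 of the 9 alternatives and its Vip call in 5. Both were lost without mouse 1 and without mouse 3, and neither was tested with thinned nuclei or libraries clustered alone. Nuclei that met both the Vip and the Cnr1 markers, called Vip or Cnr1-like, had 3, against 5.91%: Cdh8, Pcdh19 and Cdh11. Outside neurons, oligodendrocyte-like nuclei had 4, against 13.1%: Cdh19, Cdh20, Pcdh9 and Pcdh11x. OPC-like nuclei had 11, against 11.3%: Cdh19, Cdh20, Pcdh11x, Pcdh15, Cdh6, Cdh13, Cdh24, Cdh22, Cdh18, Pcdh7 and Pcdh10. Microglia-like nuclei had 2, against 16.9%: Cdh23 and Cdh5. The call of Cdh5 in microglia-like nuclei rests on 1, 5 and 2 UMIs in mice 1, 2 and 3 and was lost in DESeq2 (log2 difference 2.13, adjusted p = 0.69). In 4 of the 9 alternatives, without mouse 1 or mouse 3 among them, Cdh5 was not tested. For astrocyte-like nuclei, from 2 mice, the 3 were Cdh19, Cdh20 and Pcdh10, against 14.3%, and for vascular-like nuclei the 3 were Cdh5, Pcdh18 and Cdh19, against 11.4%.

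Granule-like nuclei of the dentate gyrus and CA pyramidal-like nuclei, successive stations of the hippocampal circuit, differed in 11 of 27 members tested, against 18.1% of all 16312 genes. There were 4 members higher in granule-like nuclei (against 6.76% of all genes) and 7 lower (against 11.4%). The median log2 difference was -0.03 over members and 0.04 over all genes. Of 12 type II cadherins 1 was higher and 5 were lower, and of 4 delta-2 protocadherins 2 were higher and 1 lower.

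Cdh13 (T-cadherin, which is held in the membrane by a lipid anchor and lacks the tail that binds catenins) stood at 552, 619.6 and 559 CPM in granule-like nuclei of mice 1, 2 and 3 and at 49.6, 79.5 and 74.0 CPM in CA pyramidal-like nuclei. Its groups did not overlap, with a log2 difference of 3.16 ± 0.17 (SE, n = 3 mice, adjusted p = 0.00026, edgeR). Cdh9 (chr15:16728756-16857094, plus strand), a type II cadherin known for its part in the synapses of granule cells onto CA3 cells, was at 864, 1032 and 1783 CPM against 223, 243 and 403 CPM (2.10 ± 0.14, adjusted p = 0.00031). All granule values of Cdh9 exceeded all CA values. Pcdh8, a synaptic protocadherin induced by activity, was at 81.4, 80.3 and 158 CPM against 19.0, 37.1 and 57.8 CPM (1.60 ± 0.20, adjusted p = 0.0019), again without overlap. Pcdh17, a protocadherin of presynaptic sites, differed by 1.03.

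Lower in granule-like nuclei by the largest fold was Cdh6 (chr15:13028701-13173675, minus strand), a type II cadherin, at 2.31, 4.81 and 4.07 CPM against 32.8, 23.0 and 120.4 CPM (-3.86 ± 0.44, adjusted p = 0.0013). Mouse 3 had by far the highest CA value of Cdh6. Among the CA fields Cdh6 was high in CA1-like nuclei alone. In the fit over all classes its log2 difference was 2.74 there, against -2.42 in CA2-, -2.70 in CA3- and -2.62 in granule-like nuclei. Cdh11, also of type II, was at 133, 111 and 62.4 CPM against 537, 436 and 383 CPM (-2.17 ± 0.16, adjusted p = 0.00038), and Cdh18, its type II relative, at 41.6, 59.1 and 46.1 CPM against 159.8, 203 and 196 CPM (-1.90 ± 0.13, adjusted p = 0.00032). None of these 3 genes overlapped between the groups, of which the CA group pools its fields. For Cdh18 the fit over all classes gave 1.32 in CA1-, 0.42 in CA2-, -0.71 in CA3- and -1.40 in granule-like nuclei. Pcdh10, a delta-2 protocadherin known from the removal of synapses, differed by -2.31 ± 0.26, adjusted p = 0.0012, and the type II cadherin Cdh24 by -2.23 ± 0.24, adjusted p = 0.0011. The differences of Cdh10 and Cdh4 were -1.26 and -1.22.

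All 11 differences had the same direction in 3 of 3 mice. Leaving out mouse 1 kept 9 of the 11 calls and lost Cdh10 (log2 -0.88, adjusted p = 0.075) and Pcdh17 (log2 0.94, adjusted p = 0.011). Leaving out mouse 2 lost Cdh10 (log2 -1.16, adjusted p = 0.14), and leaving out mouse 3 lost Cdh4 (log2 -0.78, adjusted p = 0.021). Without the mouse as a block in the fit, 4 members were called. Of the catenins and junction partners 3 of 16 were called, and of related cadherin superfamily genes 4 of 13. The largest differences among them were those of Dchs2, a large Dachsous cadherin (-3.64 ± 0.44), Celsr1, a cadherin of planar cell polarity (-3.38 ± 0.53), and Ctnna3, an alpha catenin (3.25 ± 0.41).

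**Figure D2:**
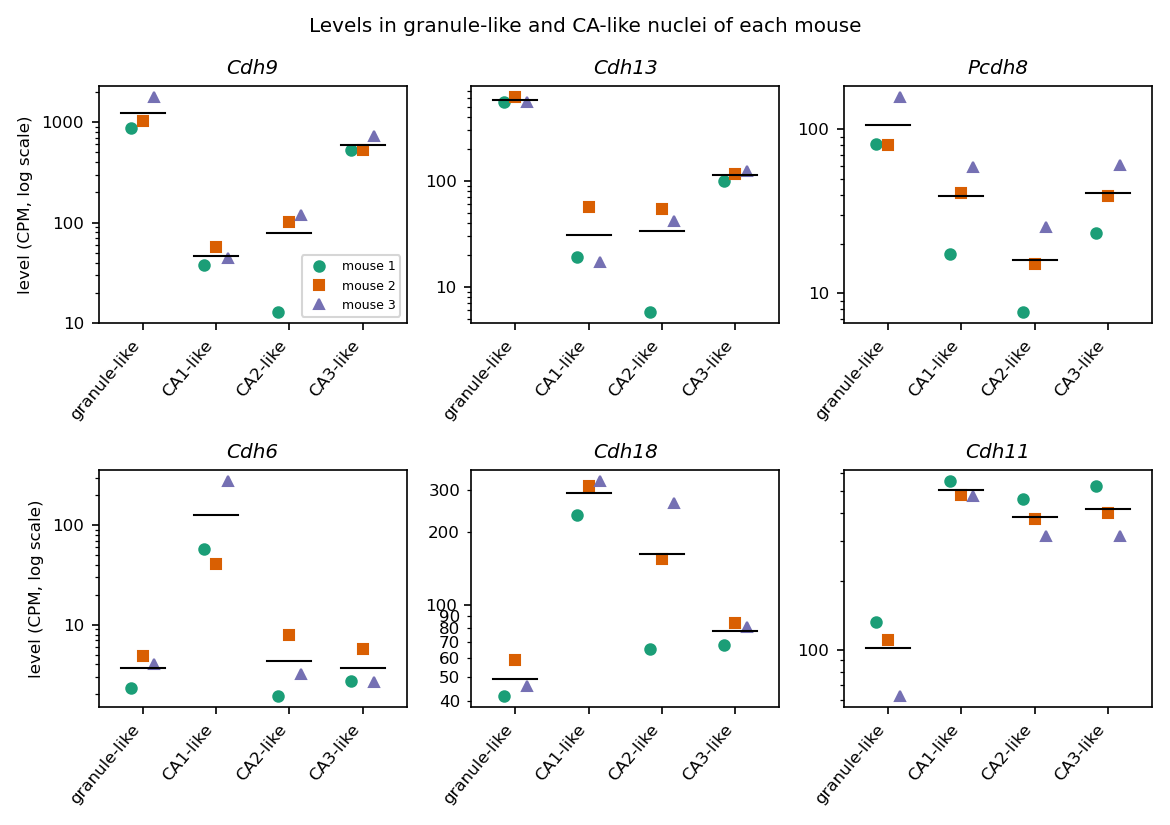
Level in CPM (vertical log axis) of 6 members in granule-, CA1-, CA2- and CA3-like nuclei, with a point for each mouse and a black line for the mean. Cdh9 and Cdh13 stand high in granule-like and low in CA1-like nuclei, and Cdh6 stands high in CA1-like nuclei of each mouse.

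CA3-like and CA1-like nuclei, the next stations of the circuit, differed in 9 of 25 members, against 10.7% of all 14752 genes. Higher in CA3-like nuclei were 6 (against 6.52% of all genes) and lower 3 (against 4.18%). Members had a median of 0.12 and all genes of -0.02. Of 12 type II cadherins 1 was higher and 3 were lower, and of 4 delta-1 protocadherins 2 were higher.

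Cdh9 was at 524, 522 and 731 CPM in CA3-like nuclei of mice 1, 2 and 3 and at 37.4, 57.6 and 44.2 CPM in CA1-like nuclei (3.68 ± 0.17, adjusted p = 0.00014). Cdh6 ran the other way, at 2.73, 5.76 and 2.69 CPM against 57.9, 40.5 and 279.5 CPM (-5.14 ± 0.65, adjusted p = 0.0025). Neither type II cadherin overlapped between the fields. Cdh13 was at 101, 116 and 125 CPM against 19.1, 56.6 and 17.0 CPM (2.11 ± 0.31, adjusted p = 0.0042), mouse 2 having the highest CA1 value. Its CA3 level differed between clusters: in mouse 1 it was at 20.05 CPM in a cluster of 246 nuclei and at 291 CPM in one of 153, and the largest CA3-like clusters of mice 2 and 3 were at 66.7 and 32.8 CPM. In CA1-like nuclei of mouse 2, Cdh13 was at 129.7 CPM in the larger cluster and 17.7 CPM in the smaller, so that single clusters of the fields overlap. For Cdh18 the levels were 68.2, 83.6 and 81.1 CPM against 236, 309 and 327 CPM (-1.90 ± 0.10, adjusted p = 0.00015), lower in CA3-like nuclei of every mouse.

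The delta-1 protocadherins Pcdh11x and Pcdh7 were higher in CA3-like nuclei. Pcdh11x, on the X chromosome, was at 46.0, 55.1 and 109 CPM against 15.1, 18.3 and 35.5 CPM (1.60 ± 0.10, adjusted p = 0.00021), and Pcdh7 at 506, 451 and 937 CPM against 197, 268 and 252 CPM (1.33 ± 0.19, adjusted p = 0.0041). All CA3 values of both genes, summed per mouse, lay above all CA1 values. By cluster, Pcdh11x was at 14.6 and 122 CPM in the CA3-like clusters of mouse 1 named above, at 21.9 CPM in that of mouse 2 and at 67.7 CPM in that of mouse 3. The type II cadherin Cdh22 differed by -1.12 ± 0.23, adjusted p = 0.016, and Pcdh20 by 1.08 ± 0.17, adjusted p = 0.0056. Cdh2 (N-cadherin, a classical cadherin of most synapses) was higher by 1.01, just past the fold limit.

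The 9 differences had the same direction in 3 of 3 mice. Without mouse 1, the call of Cdh22 (log2 -1.19, adjusted p = 0.057) was lost. Without mouse 2 that of Cdh2 (log2 0.94, adjusted p = 0.0056) was lost, and without mouse 3 those of Cdh22 (log2 -0.76, adjusted p = 0.057) and Pcdh20 (log2 0.95, adjusted p = 0.016). With no mouse block 3 members were called. In mouse 2, 143 of its CA1-like nuclei formed a cluster with a median depth 10.5 times that of the mouse. Cdh9 was at 21.7 CPM there and at 138 CPM in the larger CA1-like cluster of that mouse (612 nuclei), and the part of depth in this gap was not tested. Of catenins and junction partners 5 of 16 were called, all higher in CA3-like nuclei, and of related genes 1 of 10. The largest were those of Jup, or plakoglobin (2.90 ± 0.29), Dchs2 (2.48 ± 0.14) and Nectin3, an adhesion protein of junctions beside synapses (2.04 ± 0.39).

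**Figure D3:**
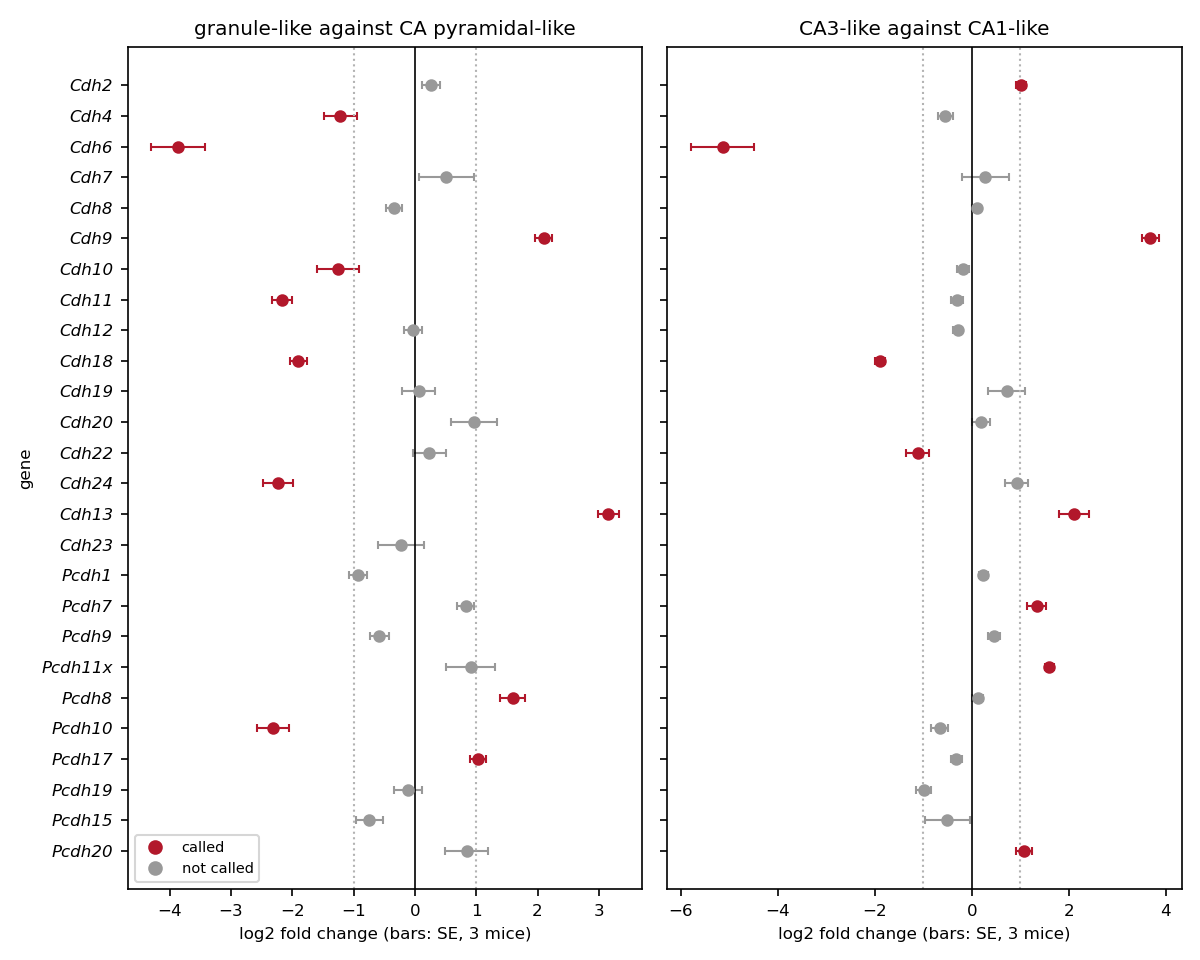
Log2 fold change (horizontal axis) with its standard error from the edgeR fit on 3 mice. The panels show granule-like against CA pyramidal-like and CA3-like against CA1-like nuclei. Drawn are the members tested that reached a mean of 20 CPM in a class. Red points are called, grey ones are not, and dotted lines mark a log2 change of 1; Cdh9 and Cdh13 lie above 2 and Cdh6 and Cdh18 below -1 in both panels.

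Other members had their highest mean in a neuronal class not yet described. Pcdh1, a delta-1 protocadherin, was at 81.8, 64.8 and 83.4 CPM in CA2-like nuclei of mice 1, 2 and 3, above all values of CA3-like nuclei, its second class (48.7, 53.6 and 46.5 CPM). Cdh11 was highest in subicular or cortical glutamatergic-like nuclei of each mouse, at 644, 629 and 672 CPM. Its clusters of at least 100 nuclei there ranged from 175 to 1192 CPM, and those of CA1-like nuclei from 399 to 574 CPM. Cdh4 (R-cadherin, a type I cadherin) was at 1259.5, 757 and 1048 CPM in Cajal-Retzius-like nuclei, which numbered 45, 37 and 24. No other class exceeded 295 CPM of Cdh4 in any mouse.

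Mouse 3 stood apart in granule-like nuclei. Pcdh11x was at 41.2, 32.2 and 305 CPM in mice 1, 2 and 3, and Cdh10, a type II cadherin, at 118, 124 and 489 CPM. Pcdh11x was also highest in mouse 3 in inhibitory nuclei (110, 72.4 and 289 CPM) and CA pyramidal-like nuclei (29.3, 32.6 and 73.5 CPM). Cdh10 was highest in mouse 3 in CA pyramidal-like nuclei (498, 355 and 588 CPM) but lowest there in inhibitory nuclei (249, 260 and 106 CPM). Nearly all granule-like nuclei of mouse 3 lay in clusters with at most 1 nucleus of the other mice. In the larger of these (939 nuclei) Pcdh11x was at 115 CPM and Cdh10 at 329 CPM, and in the smaller (398 nuclei) at 658 and 779 CPM. Mouse 3 was also the deepest library and the one processed with a later version of Cell Ranger, and these cannot be told apart.

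Inhibitory and glutamatergic neuron-like nuclei differed in 6 of 27 members, against 14.5% of all 16435 genes. Cajal-Retzius-like nuclei, listed above with the glutamatergic classes, were in neither pool, and they had the highest mean of Cdh4 (1022 CPM). Higher in inhibitory nuclei were 3 (against 7.64%) and lower 3 (against 6.82%). The median was -0.01 over members and -0.01 over all genes. Of 12 type II cadherins 1 was called and of 5 delta-2 protocadherins 3.

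Cdh4 was at 89.6, 66.1 and 119 CPM in inhibitory nuclei of mice 1, 2 and 3 and at 19.8, 22.4 and 40.8 CPM in glutamatergic nuclei (1.64 ± 0.16, adjusted p = 0.0053). Pcdh19, the delta-2 protocadherin of the epilepsy named above, was at 100.3, 70.2 and 74.7 CPM against 59.6, 37.3 and 16.7 CPM (1.16 ± 0.28, adjusted p = 0.039). Neither overlapped between the groups. Pcdh18, of the same group, had the largest fold (4.34 ± 0.37, adjusted p = 0.0039) on few molecules: 28, 13 and 13 UMIs in inhibitory and 7, 2 and 7 UMIs in glutamatergic nuclei.

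Pcdh20 was lower in inhibitory nuclei, at 4.43, 7.59 and 5.32 CPM against 13.7, 12.5 and 23.6 CPM (-1.64 ± 0.30, adjusted p = 0.019), with no overlap. Cdh24 was at 6.36, 7.73 and 2.22 CPM against 14.0, 17.8 and 5.00 CPM (-1.28 ± 0.14, adjusted p = 0.0068), and Pcdh8 at 13.6, 36.6 and 30.1 CPM against 36.3, 41.6 and 85.7 CPM (-1.16 ± 0.30, adjusted p = 0.044). The last 2 were lower within each mouse although the ranges overlapped across mice. Leaving out mouse 1 kept 1 of 6 calls, that of Cdh4, leaving out mouse 2 kept 6, and leaving out mouse 3 kept 3 and lost Pcdh20 (log2 -1.27, adjusted p = 0.052), Pcdh8 (log2 -0.87, adjusted p = 0.14) and Pcdh19 (log2 0.73, adjusted p = 0.027). Without mouse 1 the lost calls were Pcdh18 (log2 4.03, adjusted p = 0.061), Pcdh20 (log2 -1.56, adjusted p = 0.13), Cdh24 (log2 -1.28, adjusted p = 0.081), Pcdh8 (log2 -0.96, adjusted p = 0.22) and Pcdh19 (log2 1.45, adjusted p = 0.11). With no mouse block 1 member was called, and with nuclei thinned to 1000 UMIs 2. The glutamatergic markers reached 18.7%, 48.1% and 20.9% of their glutamatergic level in inhibitory nuclei of mice 1, 2 and 3, and their part in these differences was not tested. Of catenins and junction partners 1 of 16 was called and of related genes 6 of 13, with the largest differences in Celsr1 (-3.01 ± 0.43), Dchs1 (2.54 ± 0.24) and Dchs2 (2.35 ± 0.16).

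Within inhibitory nuclei, Pvalb- and Sst-like nuclei were set against Lamp5-, Vip- and Vip or Cnr1-like nuclei. Of 26 members 8 were called, against 7.55% of all 13131 genes, with 5 higher (against 3.85%) and 3 lower (against 3.7%). Medians were 0.13 over members and 0.01 over all genes. Of 11 type II cadherins 4 were higher and 2 lower.

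Cdh13 was at 665, 563 and 1002 CPM in Pvalb- and Sst-like nuclei of mice 1, 2 and 3 and at 146, 199.8 and 286 CPM in the other inhibitory classes (1.84 ± 0.13, adjusted p = 3.4e-05). The type II cadherin Cdh18 was at 474, 357 and 381 CPM against 91.5, 139 and 126 CPM (1.79 ± 0.17, adjusted p = 0.00019), and Cdh12, known as brain cadherin, at 387, 352 and 434 CPM against 137, 116 and 179 CPM (1.46 ± 0.10, adjusted p = 3.3e-05). No values of these 3 genes overlapped. Cdh9 differed by 1.31 ± 0.17, adjusted p = 0.0011 and Cdh7, also of type II, by 1.12 ± 0.18, adjusted p = 0.0029.

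Cdh20, of type II, was lower without overlap, at 59.97, 51.0 and 60.4 CPM against 249, 186 and 129.7 CPM (-1.65 ± 0.18, adjusted p = 0.00036). Cdh24 was at 3.59, 4.83 and 0.920 CPM against 9.12, 10.2 and 4.40 CPM (-1.49 ± 0.34, adjusted p = 0.016), lower in each mouse with overlapping ranges. Pcdh20 was at 1.80, 6.44 and 2.15 CPM against 8.29, 6.43 and 9.96 CPM (-1.60 ± 0.43, adjusted p = 0.035), lower in 2 of 3 mice, while the other calls had the same direction in 3 of 3. Leaving out mouse 1 lost Pcdh20 (log2 -1.35, adjusted p = 0.16) and Cdh24 (log2 -1.60, adjusted p = 0.072), leaving out mouse 3 lost Pcdh20 (log2 -1.19, adjusted p = 0.19), and leaving out mouse 2 lost none. With no mouse block 3 members were called. No catenin or junction partner of 16 was called by edgeR (8 had an unadjusted p under 0.05), and of related genes 3 of 11 were: Dchs2 (-4.57 ± 0.28), Fat4, a large cadherin that binds Dachsous (-2.69 ± 0.42), and Ret, a receptor with cadherin repeats (1.42 ± 0.40).

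The inhibitory classes also differed among themselves in levels that were not tested against each other. Cdh12 was at 643, 561 and 731 CPM in Pvalb-like nuclei of mice 1, 2 and 3, its highest class in each mouse, and at 191, 119 and 106 CPM in Sst-like nuclei. Cdh8, a type II cadherin, ran the other way, at 118, 134 and 113 CPM in Pvalb-like and 656, 652 and 710.5 CPM in Sst-like nuclei. Both genes kept these classes apart in every mouse. Cdh13 peaked in Sst-like nuclei, at 778, 732 and 1341 CPM. Among inhibitory classes Cdh20 was highest in Lamp5-like nuclei, at 491, 319 and 235 CPM.

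**Figure D4:**
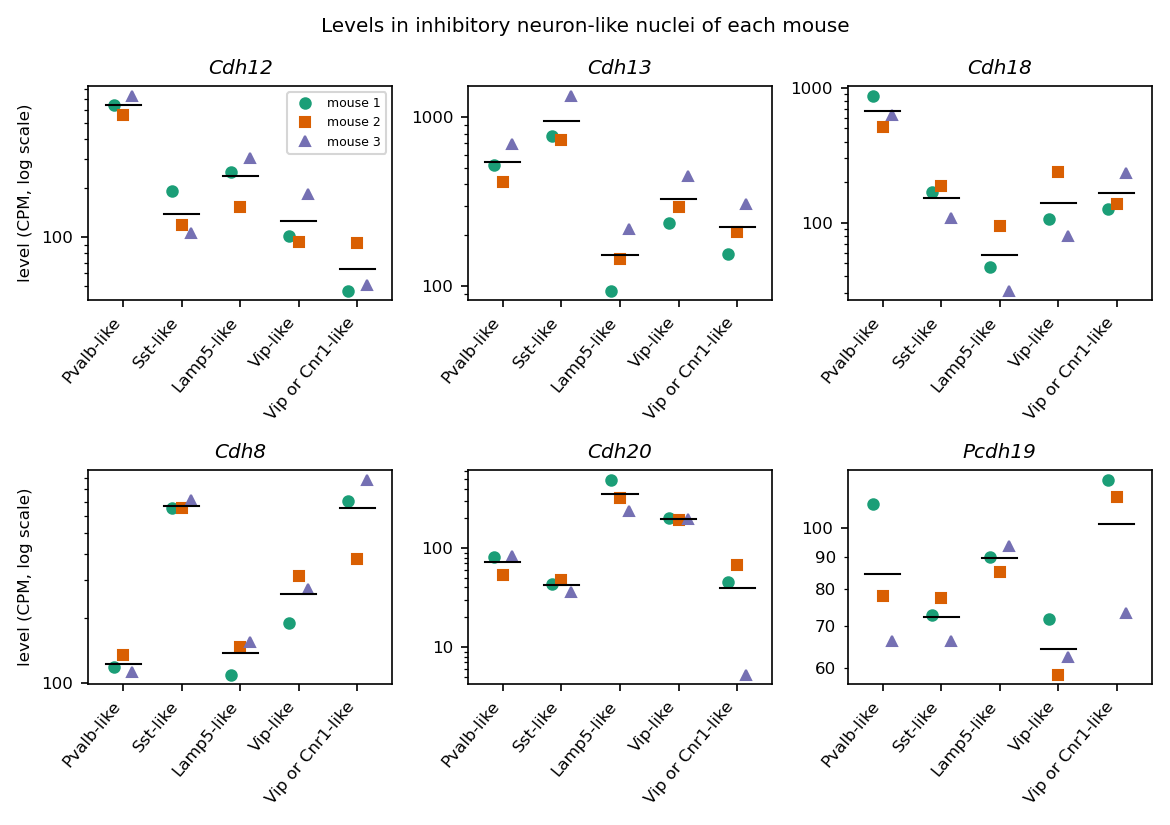
Level in CPM (vertical log axis) of 6 members in 5 inhibitory classes, with a point for each mouse and a black line for the mean. Cdh12 is highest in Pvalb-like nuclei and Cdh13 in Sst-like nuclei, and Cdh8 is lower in Pvalb-like than in Sst-like nuclei of each mouse.

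Pools of neuron-like and glia-like nuclei differed in 8 of 26 members, against 23.7% of all 17460 genes, a share near that background. There were 5 members higher in neurons (against 9.11%) and 3 lower (against 14.6%). The median was 0.66 over members and 0.03 over all genes. The glial pool mixed its classes in different shares in the 3 mice.

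Higher in glia were Cdh19, a type II cadherin known from glia of the nerve, Cdh23 and Cdh20. Cdh19 was at 1.63, 11.3 and 1.66 CPM in neurons of mice 1, 2 and 3 and at 298, 129.7 and 384 CPM in glia (-6.06 ± 1.08, adjusted p = 0.027). Cdh23, known from the tip links of hair cells in the inner ear, was at 1.78, 6.66 and 1.78 CPM against 80.1, 55.6 and 40.8 CPM (-3.97 ± 0.51, adjusted p = 0.016). Cdh20 was at 79.4, 61.7 and 58.0 CPM against 729.8, 292 and 865 CPM (-2.74 ± 0.33, adjusted p = 0.014). The groups of these genes did not overlap, and mouse 2 had the highest neuronal values of Cdh19 and Cdh23.

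Higher in neurons were the type II cadherins Cdh12, at 371, 273 and 305 CPM against 59.2, 197 and 60.1 CPM (2.23 ± 0.58, adjusted p = 0.049), and Cdh8, at 386, 325 and 371 CPM against 77.5, 202 and 76.6 CPM (2.15 ± 0.49, adjusted p = 0.040). Cdh11 was at 373, 364 and 277 CPM against 147, 240.3 and 101 CPM (1.51 ± 0.33, adjusted p = 0.038). In all 3 the highest glial value was that of mouse 2. Of the 3 mice, mouse 2 also had the highest level of glutamatergic markers in oligodendrocyte-like nuclei, and the part of these markers was not tested. Pcdh1 differed by 1.17 ± 0.26, adjusted p = 0.039 and Pcdh19 by 1.09 ± 0.25, adjusted p = 0.040. Leaving out mouse 1 or mouse 3, edgeR called 0 members and 0 genes in all, with 8 and 10 members at an unadjusted p under 0.05. Without mouse 2 it called 14 members, and DESeq2 on all mice called 13. Of catenins and junction partners 4 of 16 were called and of related genes 4 of 13, with the largest differences in Celsr3, a cadherin of planar polarity (2.27 ± 0.49), Ctnna1, an alpha catenin (-2.11 ± 0.41), and Clstn3, a calsyntenin (2.07 ± 0.46).

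Pcdh9 (chr14:93013410-93890679, minus strand), a delta-1 protocadherin, had the highest CPM of the family in each library, at 4011, 3790.0 and 5045 CPM in mice 1, 2 and 3. In oligodendrocyte-like nuclei it reached 14393, 10294 and 19430.1 CPM, and no other class exceeded 6995 CPM in any mouse. In the fit over all classes this was a difference of 2.06 ± 0.24 (adjusted p = 1.0e-08), a call kept in all alternatives. Neuron-like nuclei, at 3354, 3346 and 4628 CPM, differed from pooled glia, at 10192, 6011 and 11133 CPM, by -0.86, which was not called. Folds include a scaling between the sums that CPM lack, so they need not match, and calls near the fold limit depend on it.

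Cdh23 (chr10:60302748-60696490, minus strand) was at 387, 99.7 and 244 CPM in microglia-like nuclei of mice 1, 2 and 3, and no other class exceeded 12.5 CPM in any mouse. With each nucleus thinned to 1000 UMIs, 33.9%, 8.12% and 23.5% of microglia-like nuclei held a UMI of Cdh23 (60.7%, 16.02% and 67.3% unthinned), against 0%, 1.05% and 0% of granule-like nuclei (0.812%, 2.24% and 0.740% unthinned). Microglia-like nuclei stood above granule-like nuclei in each mouse, and mouse 2 was the lowest. In that mouse the microglia markers also summed lower, to 8701, 2521 and 7688 CPM in microglia-like nuclei of mice 1, 2 and 3.

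Cdh5 (VE-cadherin, the junction protein of endothelium) was at 37.3, 2.08 and 56.7 CPM in vascular-like nuclei, against at most 1.49 CPM in other classes. These are 8, 1 and 38 UMIs. DESeq2 did not call it there (log2 difference 7.80, adjusted p = 0.16). Without mouse 1, without mouse 3, with thinned nuclei and with each library clustered alone it did not pass the filter on low counts and was not tested. In these nuclei the sum of glutamatergic markers came to 59.3%, 78.2% and 17.8% of that in glutamatergic nuclei, and their part in the low value of mouse 2 was not tested.

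OPC-like and oligodendrocyte-like nuclei, the precursors and the mature cells of a lineage, differed in 8 of 26 members, against 17.6% of all 12210 genes. All 8 were higher in OPC-like nuclei (against 9.55% of all genes higher and 8.03% lower). Members had a median of 0.58 and all genes of -0.02.

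Cdh4 was at 66.4, 43.4 and 32.1 CPM in OPC-like nuclei of mice 1, 2 and 3 and at 3.89, 8.88 and 7.42 CPM in oligodendrocyte-like nuclei (2.80 ± 0.43, adjusted p = 0.012). Cdh13 was at 712, 487 and 1176 CPM against 36.9, 226 and 178 CPM (2.67 ± 0.64, adjusted p = 0.038), and Pcdh15, the partner of Cdh23 in hair cells, at 3678, 1597 and 2471 CPM against 273, 503 and 421 CPM (2.63 ± 0.49, adjusted p = 0.019). The classes did not overlap in these genes, and in Cdh13 and Pcdh15 mouse 2 had the lowest OPC and the highest oligodendrocyte value. Cdh24 was at 29.4, 19.5 and 20.1 CPM against 4.08, 10.3 and 2.05 CPM (2.27 ± 0.50, adjusted p = 0.029), and Cdh18 at 283, 234 and 606 CPM against 32.5, 118 and 114 CPM (2.16 ± 0.44, adjusted p = 0.024). Pcdh7 was at 1274, 981 and 1491 CPM against 233, 349 and 408 CPM (1.91 ± 0.30, adjusted p = 0.013). These 3 did not overlap either. Cdh6 differed by 1.70 ± 0.19, adjusted p = 0.0060 and Pcdh10 by 1.20 ± 0.18, adjusted p = 0.011.

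Other members were high in both classes. Cdh19 was at 422, 251 and 422 CPM in oligodendrocyte-like and 177, 97.6 and 405 CPM in OPC-like nuclei (-0.91, not called). Cdh20 was at 996, 518 and 742 and 609.9, 296 and 1185 CPM (-0.31, not called). Both were also high in astrocyte-like nuclei of mice 1 and 3, Cdh19 at 265 and 622 CPM and Cdh20 at 453 and 1638 CPM. Pcdh11x was highest in OPC-like nuclei of each mouse, at 799, 435 and 597 CPM, with oligodendrocyte-like nuclei at 305, 237 and 408 CPM (0.91, not called). Pcdh9 went the other way at -1.50 and was not called.

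The 8 calls had the same direction in 3 of 3 mice. Leaving out mouse 1 kept 2 of them, Cdh4 and Cdh6, and lost Cdh13 (log2 1.94, adjusted p = 0.085), Pcdh15 (log2 2.13, adjusted p = 0.056), Cdh24 (log2 2.01, adjusted p = 0.12), Cdh18 (log2 1.73, adjusted p = 0.082), Pcdh7 (log2 1.70, adjusted p = 0.066) and Pcdh10 (log2 1.12, adjusted p = 0.076). Leaving out mouse 2 kept all 8. Leaving out mouse 3 kept 3, those of Cdh4, Cdh6 and Pcdh10, and lost Cdh13 (log2 2.65, adjusted p = 0.13), Pcdh15 (log2 2.68, adjusted p = 0.090), Cdh24 (log2 1.88, adjusted p = 0.097), Cdh18 (log2 2.02, adjusted p = 0.090) and Pcdh7 (log2 1.94, adjusted p = 0.065). The glutamatergic markers reached 28.6%, 62.4% and 24.7% of their glutamatergic level in OPC-like nuclei of mice 1, 2 and 3, and their part was not tested. Of catenins and junction partners 2 were higher and 3 lower of 16, and of related genes 2 of 10 were higher. The largest differences were those of Dchs1, a Dachsous cadherin (3.34 ± 0.73), Jup (-2.61 ± 0.27) and Ctnnd2, a catenin known from neurons (2.07 ± 0.44).

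**Figure D5:**
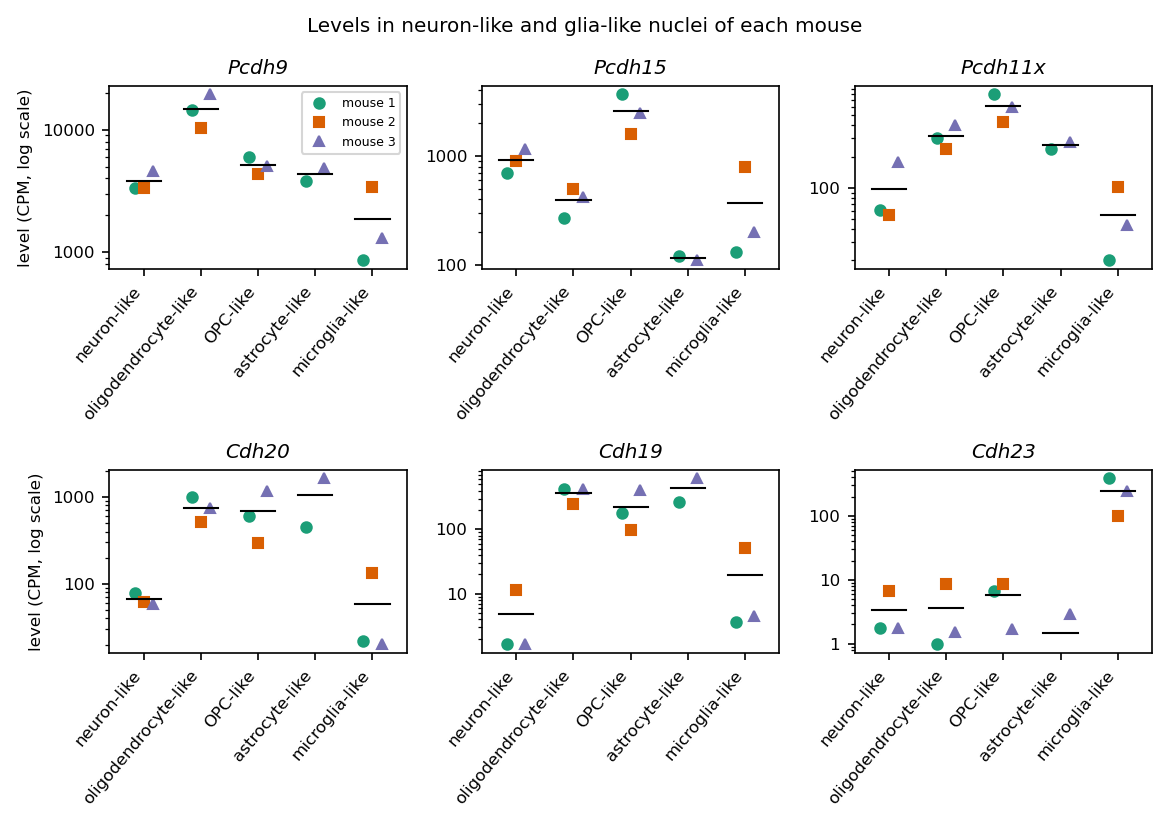
Level in CPM (vertical log axis) of 6 members in pooled neuron-like nuclei and 4 glial classes, with a point for each mouse and a black line for the mean; astrocyte-like nuclei lack mouse 2. Pcdh9 is highest in oligodendrocyte-like, Pcdh15 and Pcdh11x in OPC-like and Cdh23 in microglia-like nuclei, and the 0 CPM of Cdh23 in astrocyte-like nuclei of mouse 1 cannot be drawn on a log axis.

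Class patterns were compared between members over the means of 16 classes, as a description, since classes share libraries. The closest pair was Cdh19 and Cdh20 (Spearman rho 0.74), which both lie on chromosome 1. Next came Pcdh7 and Cdh13 (0.71), Pcdh8 and Pcdh20 (0.69), Cdh6 and Cdh18 (0.66), and Cdh8 and Cdh11 (0.66).

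Over the 6 comparisons, 28 members passed the filter on low counts in at least 1, and 26 of them were called in at least 1, against 44.7% of all genes tested in any. Cdh13, Cdh18 and Cdh24 were called in 4, and Cdh4, Cdh6, Cdh9 and Pcdh20 in 3, against 9.17% of genes called in 3 or more. Comparisons share nuclei, so these counts are not independent. Pcdh9 was tested in all 6 and called in none, and Cdh15 (M-cadherin of muscle) was tested in 1 and not called. The 7 members that passed in none were Cdh1 (E-cadherin), Cdh3 (P-cadherin), Cdh5, Cdh16 (known from kidney), Cdh17 (known from liver and gut), Cdh26 and Pcdh12 (known from endothelium). None of these exceeded 0.362 CPM in a whole library. The highest class value of Cdh1 was 22.4 CPM, in vascular-like nuclei of mouse 3.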

How the data were processed

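Single-nucleus RNA was measured in the hippocampus of 3 mice. The deposited files give unnormalized UMI counts for each gene in each nucleus, made by the authors with Cell Ranger 7.0.0 (mice 1 and 2) and 7.1.0 (mouse 3), per the file headers, on mm10, per the submitters' processing notes. The sources used here do not say whether introns were counted. Nuclei with under 500 genes or over 5% mitochondrial UMIs and doublets (Scrublet in scanpy 1.11.5; the expected rate where its automatic threshold called 0, in mouse 2) were removed. The libraries held 100230288, 50931257 and 140527761 UMIs. Leiden clusters (leidenalg 0.10.2, resolution 1.5, 3000 variable genes, 30 components, without members and partner genes) were named where at least 3 markers stood at least 2-fold above the other clusters. Some clusters without such markers were named glutamatergic from a comparison with inhibitory and glial clusters alone. UMIs were summed per class and mouse, with at least 20 nuclei.

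Sums were tested with edgeR 4.0.16 (R 4.3.3): quasi-likelihood test, TMM scaling, filterByExpr and the mouse as a block. The p-values were adjusted by Benjamini-Hochberg across every gene tested. Each SE is the absolute log2 fold change divided by the square root of the F statistic of that test. It is an error of the fit, with a spread moderated across genes, and not one taken over 3 mouse values. The block is used because both sums of a comparison come from the same animal; their deviations correlated by 0.35, 0.073 and 0.34 in mice 1, 2 and 3 for neurons and glia and by at least 0.32 elsewhere. The alternatives were DESeq2 1.42.0, RLE size factors, no filter on low counts, no block, each mouse left out, nuclei thinned to 1000 UMIs and each library clustered alone. The test was also tried on simulated data. Members and lists were chosen with earlier results of these data known. Per comparison, full statistics were given for at most 8 called members with the largest fold, values per mouse for 6 of them, and at most 3 partner genes.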

Additional observations from a re-analysis of the deposited data

How the results depend on the processing

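Without the replicate block, the members called fell from 6 to 1 (inhibitory against glutamatergic, while 7.04% of all genes were called), from 11 to 4 (granule against CA pyramidal, 10.0%), from 9 to 3 (CA3 against CA1, 3.32%) and from 8 to 3 (Pvalb and Sst against other inhibitory classes, 2.74%). The block changed the number by less than 1.5 times for neurons against glia and for OPC against oligodendrocyte. For neurons against glia, with 8 of 26 members called, DESeq2 called 13 (31.8% of all genes), nuclei thinned to 1000 UMIs gave 5 (16.1%) and libraries clustered alone 3 (15.8%). Thinning gave 2 for inhibitory against glutamatergic nuclei (8.20%), and clustering alone 4 for OPC against oligodendrocyte (11.8%). The members' share was below that of all genes for inhibitory against glutamatergic nuclei without the block or thinned, and for neurons against glia clustered alone. Leaving out each mouse in turn gave 0 to 14 members for neurons against glia (0 to 33.3% of all genes), 1 to 6 for inhibitory against glutamatergic (0.896 to 15.5%) and 2 to 8 for OPC against oligodendrocyte (6.16 to 24.6%). Over all 35 members, 13 had the same highest class in all mice, and 14 to 21 when a mouse was left out; of all genes reaching 20 CPM, 31.6% did, and 40.5 to 53.5% when a mouse was left out. The cause of these shifts was not tested, beyond the fewer samples of the fits that leave out a mouse and the fewer UMIs of thinned nuclei. No called difference changed sign in any alternative run. The shallow depth of mouse 2, with a median of 1801 UMIs per nucleus, limits what its small classes can show.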
